A study of Mus musculus with 12 samples.

Results

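The nuclear genes for subunits of the mitochondrial respiratory chain were followed in embryonic mouse tongue at day 13.5 of gestation (E13.5). Members were all genes whose symbol begins with the names used for subunits of complex I (Ndufa, Ndufb, Ndufc, Ndufs, Ndufv), complex II (Sdha to Sdhd), complex III (Uqcr), cytochrome c oxidase or complex IV (Cox4 to Cox8) and ATP synthase or complex V (Atp5). Assembly factors and 2 Cox6 genes were left out. Of the 18193 genes measured, 80 met this rule: 36 in complex I, 4 in complex II, 8 in complex III, 15 in complex IV and 17 in complex V. Another 8 symbols that fit the rule were carried by shared probe sets with several symbols and are not analysed here. Each gene was read from its brightest probe set by the mean over 12 arrays.

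The 6 control embryos were Myf5-Cre;Smad4flox/+ and the 6 mutant embryos were Myf5-Cre;Smad4flox/flox, all on the C57BL/6J background, with 1 array for each sample. Genotype was taken from the genotype label, and a free-text label that speaks of early embryos of another kind was not used. Both groups therefore carried Myf5-Cre, which makes Cre recombinase where the muscle gene Myf5 is active, so that other cells keep Smad4. Controls also carried 1 floxed copy of Smad4, through which both TGF-β and BMP receptors signal to the nucleus. RNA came from the tongue primordium as a whole, so muscle was measured together with mesenchyme, epithelium, nerve and vessels, and fewer muscle cells cannot be told apart from less RNA per muscle cell. The comparison asks how expression differs when Smad4 is removed from the Myf5-expressing lineage.

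The electron transport chain of the inner mitochondrial membrane passes electrons from NADH (through complex I) and from succinate (through complex II) to complex III, then by cytochrome c to complex IV, which reduces oxygen. Complexes I, III and IV pump protons, and complex V uses the proton gradient to make ATP. Most subunits are made in nearly every cell, but several subunits of complex IV exist as a common and a tissue-restricted isoform, among which Cox8b and Cox7a1 are the heart and skeletal muscle forms of Cox8a and Cox7a2.

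Across the whole table, 2020 genes passed a limma adjusted p of 0.05, of which 1147 rose and 873 fell in mutants. The arrays did hold muscle: the 18 skeletal muscle markers had a mean of 12.75 (log2) in controls, against a median of 6.13 over all values. All 18 lay below their control level in the mutant, 17 of them past the threshold, with a median difference of −0.66 (log2). The marker list was drawn up with earlier results of these data known. Smad4 itself did not pass (−0.15 ± 0.10 SE, limma adjusted p = 0.427). Mutant 1 alone lay low (11.58), the other mutants (12.18 to 12.30) lay within the control range (12.16 to 12.35), and without mutant 1 the Smad4 difference was −0.04. Whether its probe set lies in the floxed part is not known here. The eighteenth muscle marker was Ckm, named after its value was seen. Array medians ran from 6.10 to 6.18, against a range of 2.57 to 15.09 for single values. On the first principal component mutants 1 and 2 were most distant from controls (24.7 and 20.3, against 2.90 to 14.8 for the other mutants and −16.7 to −9.44 for controls). The 5′ probe set of 18S rRNA was lowest on mutant 6 (13.68) and next lowest on control 6 (14.23). The Xist and Eif2s3y signals were intermediate or both raised on control 3, mutant 4 and mutant 6. Results for all genes, members, Smad4 and the named genes of mitochondrial lists were also fitted without these arrays, singly or in sets. The isoform gaps and the cell type markers are given on all arrays only.

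Promoter stretches are shown for the Cox8 pair, whose muscle isoform passed where the common isoform did not. They are also shown for the Cox7a pair, which holds the other muscle isoform among the members. Uqcrfs1, the other member that passed, is shown too. The stretches run from 150 bases before to 30 bases after the RefSeq start site (GRCm38.p6). Capitals mark matches, on either strand, to short motifs. CAGCTG is an E-box bound by the myogenic factors that switch on muscle genes, and TATAAA is the TATA box found in many tissue-restricted promoters. The others belong to factors known for nuclear genes of mitochondrial proteins. GCGCATGCG is a core recognised by the nuclear respiratory factor NRF1. CCGGAAG is recognised by ETS factors, among them GABP, and AAGATGG by the zinc-finger protein YY1. A MEF2 site of muscle promoters was searched as CTA and TAG around any 4 bases. AAGGTCA is the extended site of the oestrogen-related receptors. The stretches lie at chr7:140900417-140900596 on the minus strand (Cox8b), chr19:7217587-7217766 on the minus strand (Cox8a), chr7:30184021-30184200 on the plus strand (Cox7a1), chr9:79759824-79760003 on the minus strand (Cox7a2) and chr13:30545287-30545466 on the minus strand (Uqcrfs1).
Cox8b: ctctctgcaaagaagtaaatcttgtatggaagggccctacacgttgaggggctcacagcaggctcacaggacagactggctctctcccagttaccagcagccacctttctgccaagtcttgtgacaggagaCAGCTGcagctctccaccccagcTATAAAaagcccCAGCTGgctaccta
Cox8a: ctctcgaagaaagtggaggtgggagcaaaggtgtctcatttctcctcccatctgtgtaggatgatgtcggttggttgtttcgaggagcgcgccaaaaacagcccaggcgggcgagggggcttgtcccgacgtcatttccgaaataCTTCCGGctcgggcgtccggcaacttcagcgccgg
Cox7a1: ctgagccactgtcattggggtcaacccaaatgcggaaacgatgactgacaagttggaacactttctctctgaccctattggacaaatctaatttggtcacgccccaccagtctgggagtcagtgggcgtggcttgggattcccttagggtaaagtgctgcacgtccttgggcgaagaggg
Cox7a2: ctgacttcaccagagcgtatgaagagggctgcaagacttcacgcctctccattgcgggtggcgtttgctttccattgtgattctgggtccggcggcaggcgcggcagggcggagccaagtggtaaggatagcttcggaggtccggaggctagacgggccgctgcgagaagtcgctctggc
Uqcrfs1: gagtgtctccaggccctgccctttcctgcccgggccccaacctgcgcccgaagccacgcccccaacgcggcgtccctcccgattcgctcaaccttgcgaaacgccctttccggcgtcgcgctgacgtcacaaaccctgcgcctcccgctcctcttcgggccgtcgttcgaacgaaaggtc

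Cox8b held CAGCTG at bases −19 to −14 and again at 17 to 22 from the start site, with TATAAA at 5 to 10. The TATAAA letters thus lay after the RefSeq start site, and whether they act as a TATA box was not tested. Cox8a held the ETS letters at −5 to 2, and the other 3 stretches held none of the letters searched. RefSeq windows of 300 bases (250 before to 50 after the start) were given for 66 of the 80 members, in 71 windows. The ETS letters stood in 22.5% of these windows (16 of 71) and in 8.86% of all 32851 windows. Those of NRF1 stood in 8.45% (6 of 71) against 1.75%. Those of YY1 stood in 14.1% against 6.34%, and of oestrogen-related receptors in 11.3% against 4.72%. The E-box stood in 8.45% of member windows and 16.3% of all windows, the TATA box in 12.7% and 13.6%, and the MEF2 letters in 1.41% (that of Cox5b) and 3.69%. Cox8b had the fewest CpG dinucleotides of any member window, 2 in 300 bases, and Cox7a1 the next fewest with 7. Cox8a had 19, Cox7a2 had 20 and Uqcrfs1 had 31. The median was 19 over member windows and 7 over all windows, which include genes of every kind. The ETS and NRF1 letters contain CpG, and those of YY1 and the oestrogen-related receptors do not. Whether CpG content bears on the shares with a motif was not tested. The motif matches describe letters in a window, not binding.

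Of the 80 respiratory chain genes 2 were lower in the mutant tongue and none was higher, where 11.1% of all genes passed, 4.8% lower and 6.3% higher (limma, adjusted p under 0.05 over all genes). The genes that fell were Cox8b, the muscle isoform of the smallest complex IV subunit, and Uqcrfs1, the Rieske iron-sulfur protein of complex III. Without adjustment 8 members had p under 0.05, all lower, against 24.8% of all genes, 10.1% lower and 14.7% higher. Mutants and controls lay wholly apart for Cox8b and Uqcrfs1 and for no other member, where 6.3% of all genes did so, 2.9% as lower and 3.4% as higher.

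Most differences were small and their intervals narrow. The median over the 80 members was −0.03 on the log2 scale, with quartiles of −0.06 and −0.0011, beside a median of 0.01 over all genes. For 76 of 80 members the 95% interval of the difference lay wholly within a 1.25-fold change in either direction (0.32 on the log2 scale), as it did for 75.4% of all genes. The exceptions were Cox8b, Cox7a1, Cox7c and Cox7b2, all of complex IV. The last 2 had dim probe sets and wide intervals (−0.23 to 0.48 and −0.17 to 0.45). Among the 76, Ndufb4 (4.19 in controls) and Cox4i2 (5.83) also had dim probe sets, under the median of all values (6.13). Fold changes are understated there. Of the 75 members above that median, 74 had intervals within the bound. Below zero lay 62 of 80 differences, or 77.5%, compared with 47.1% of all genes. After quantile normalisation 56 of the 80 lay below zero.

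**Figure D1:**
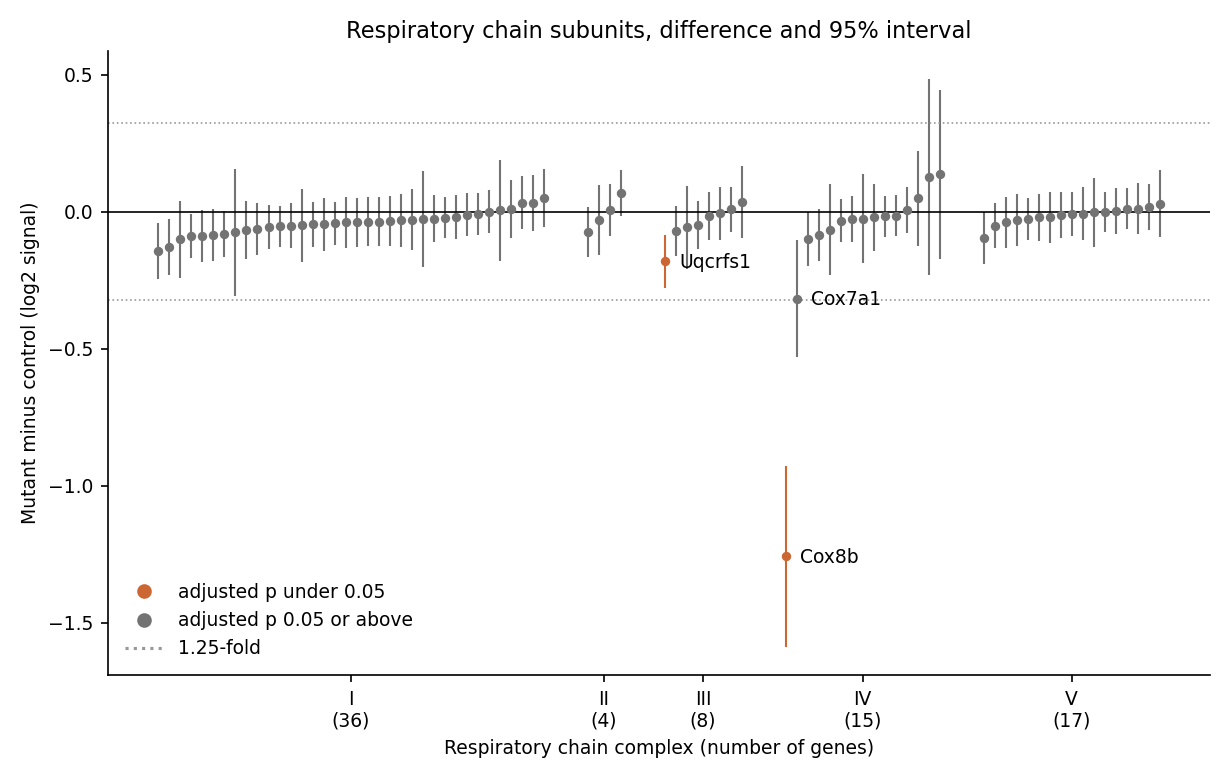
Difference in log2 signal (mutant minus control, vertical axis) of each of the 80 respiratory chain genes with its 95% interval, grouped by complex and sorted within each. Cox8b stands apart at −1.26, Uqcrfs1 (−0.18) also passed, and dotted lines mark a 1.25-fold change.

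Cox8b went from 9.41 ± 0.32 in controls to 8.16 ± 0.29 in mutants (mean ± SD, n = 6 each). Control arrays 1 to 6 read 8.88, 9.75, 9.67, 9.46, 9.49 and 9.23, and mutant arrays 1 to 6 read 7.70, 8.58, 8.14, 8.02, 8.25 and 8.26. Every mutant lay below every control, and the lowest control was array 1 and the highest mutant was array 2. The difference was −1.26 ± 0.15 (SE) on the log2 scale, 2.39-fold lower, with a limma adjusted p of 0.000376 and a 95% interval of −1.59 to −0.93. Cox8b passed under all 23 alternatives, with differences from −1.36 to −1.17 and adjusted p from 0.000113 to 0.0107.

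Cox8a, the common isoform of the same subunit, read 13.37 ± 0.08 in controls and 13.27 ± 0.05 in mutants (n = 6 each). Its controls were 13.41, 13.28, 13.49, 13.38, 13.37 and 13.31 and its mutants 13.18, 13.26, 13.31, 13.31, 13.26 and 13.31. The groups overlapped, with 3 of 6 mutants below all controls. Its difference of −0.10 ± 0.05 (SE) did not pass (limma adjusted p = 0.192), and its interval ran from −0.20 to −0.0020. The gap between both isoforms on each array was then compared directly. Cox8b minus Cox8a was lower in mutants by more than the spread, at −1.16 ± 0.17 (SE; interval −1.55 to −0.77; lower on 6 of 6 mutant arrays than on any control; exact 2-sided permutation p = 0.00216, the smallest possible, and 0.0108 after adjustment over 5 isoform pairs).

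Cox7a1, the muscle isoform of subunit VIIa, missed the threshold. It read 5.14, 5.78, 5.48, 5.47, 5.72 and 5.63 on control arrays 1 to 6 and 5.24, 5.45, 5.23, 5.25, 5.10 and 5.05 on mutant arrays 1 to 6. Control 1 was lower than 4 of the 6 mutants, while the other controls all lay above every mutant. The difference was −0.32 ± 0.10 (SE; limma adjusted p = 0.0572; interval −0.53 to −0.10). Its probe set was dim, under the median of all values (6.13), where fold changes are understated. Without control 1 the difference was −0.40 (adjusted p = 0.00735), without mutant 2 −0.36 (0.0412), and with array weights −0.31 (0.0417). Over all 22 alternatives that kept the gene the adjusted p ran from 0.00735 to 0.218.

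Its common partner Cox7a2 lay at 14.03 ± 0.02 in controls and at 14.01 ± 0.03 in mutants, which differ by −0.01 (limma adjusted p = 0.858; interval −0.09 to 0.06). The gap of Cox7a1 to Cox7a2 differed by −0.30 ± 0.10 (SE; lower on 2 of 6 mutant arrays than on any control), with an exact permutation p of 0.0238, or 0.0595 over the 5 pairs, which does not pass.

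**Figure D2:**
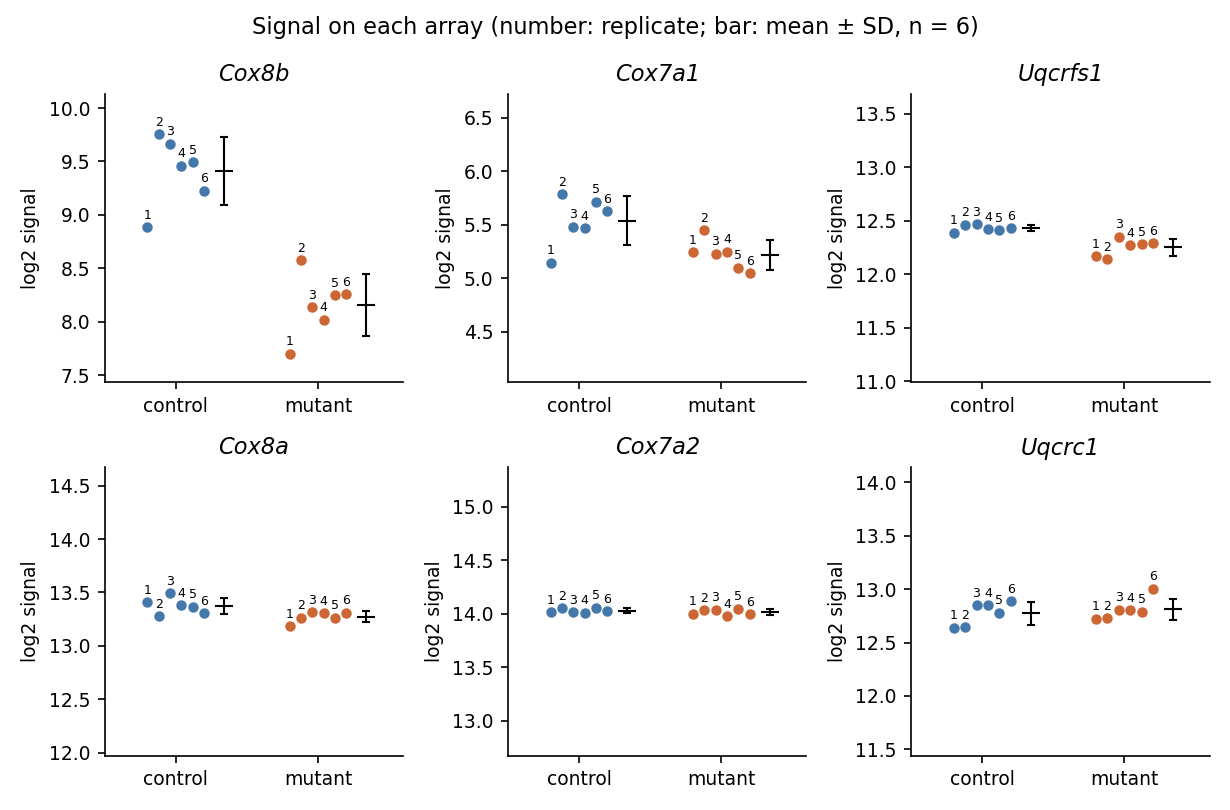
Log2 signal on each of 6 control and 6 mutant arrays for Cox8b and Cox8a, Cox7a1 and Cox7a2, and Uqcrfs1 and Uqcrc1, each axis spanning the same number of log2 units (points: arrays, numbered by replicate; bars: mean ± SD). Mutants lie below all controls for Cox8b (highest mutant 8.58, lowest control 8.88) and Uqcrfs1 (12.35 and 12.39), and overlap the controls for the others.

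The remaining isoform pairs showed no difference past the spread. Cox4i2, the isoform tied to low oxygen and made in lung and vessel walls, read 5.83 ± 0.17 in controls and 5.80 ± 0.09 in mutants, against −0.03 for its common partner Cox4i1 (14.14 ± 0.03 and 14.10 ± 0.04). The Cox4i2 probe set, like that of Cox7a1, was dim, under the median of all values (6.13), where fold changes are understated. The gap between Cox4i2 and Cox4i1 moved by 0.01 (interval −0.16 to 0.18, exact permutation p = 0.907, also after adjustment). For Cox6b2, the testis form, against Cox6b1 the gap moved by 0.07 (interval −0.16 to 0.31; adjusted p = 0.843 by the same exact test). Ndufa4l2 and Ndufa4 carry complex I names, although Ndufa4 is now known as a subunit of complex IV and Ndufa4l2 as a gene induced by low oxygen. Their gap moved by 0.02 (interval −0.18 to 0.21; adjusted p = 0.907 by the exact test).

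Besides Cox8b, no complex IV member passed. Apart from the dim Cox7a1, Cox7b2 and Cox7c, their differences lay between −0.10 and 0.05, that of the dim Cox4i2 included. Cox7a2l, a factor that joins complexes III and IV into supercomplexes, differed by −0.09 (limma adjusted p = 0.256), with 4 of 6 mutants below all controls. Cox8c, a testis form, differed by −0.07 (0.671) and Cox7b2 by 0.14, the largest upward difference of the complex, also short of the threshold.

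Uqcrfs1 carries the iron-sulfur cluster that takes electrons from ubiquinol in complex III. It read 12.39, 12.46, 12.47, 12.42, 12.41 and 12.43 on control arrays 1 to 6 and 12.17, 12.14, 12.35, 12.27, 12.28 and 12.29 on mutant arrays 1 to 6. All mutants lay below all controls, mutants 1 and 2 lowest and mutant 3 only just below the lowest control. The difference was −0.18 ± 0.04 (SE), a 1.13-fold reduction (limma adjusted p = 0.0185; exact permutation p = 0.00216, the smallest possible; interval −0.28 to −0.08). Without mutants 1 and 2 it was −0.13 (adjusted p = 0.122), and without control 3, mutant 4 and mutant 6 it was −0.19 (0.0862), both no longer past the threshold. The other 7 members of complex III, which include the core proteins Uqcrc1 and Uqcrc2, differed by −0.07 to 0.04 and none passed. Uqcrc1, with the highest difference of these, read 12.77 ± 0.11 in controls and 12.81 ± 0.10 in mutants (limma adjusted p = 0.788).

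None of the 36 genes with complex I names passed, although 31 lay below zero, with a median of −0.04 and a range of −0.15 to 0.05. These counts include Ndufa4 and Ndufa4l2, which carry the name only. The largest downward difference was that of Ndufa6, an accessory subunit, which read 12.13, 12.31, 12.17, 12.25, 12.17 and 12.19 in controls and 11.98, 12.03, 12.19, 12.01, 12.05 and 12.09 in mutants. Mutant 3 lay within the control range and the other 5 below it. Ndufa6 differed by −0.15 ± 0.05 (SE; limma adjusted p = 0.0675; interval −0.25 to −0.04). It passed in 3 of 23 alternatives: with dim probe sets left out (adjusted p = 0.0387), with a trended and robust variance (0.031), and without mutant 3 (−0.17, 0.0322). Of the 6 measured core subunits, which carry the flavin and most iron-sulfur clusters, none passed. Below zero lay 5 of the 6, with a median of −0.05. Ndufs7 was the lowest of them at −0.13 (limma adjusted p = 0.103; interval −0.23 to −0.03), with 5 of 6 mutants below all controls. Ndufs1, the largest iron-sulfur subunit, differed by −0.03 (limma adjusted p = 0.796; interval −0.14 to 0.08). Ndufv1, which binds the flavin, read 11.97 ± 0.10 in controls and 12.02 ± 0.03 in mutants, the largest upward difference of the complex (0.05, limma adjusted p = 0.595).

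Complex II, which is also succinate dehydrogenase of the tricarboxylic acid cycle, had a median of −0.01 over its 4 genes. Sdhd, a membrane anchor, differed by −0.07 (limma adjusted p = 0.311) and Sdha, the flavoprotein, by 0.07 (0.307), and neither passed. Complex V had a median of −0.0098 over 17 genes, which lay between −0.10 and 0.03, and none passed. Its catalytic subunits Atp5a1 and Atp5b differed by 0.03 (interval −0.09 to 0.15) and 0.01 (−0.08 to 0.10). The 3 genes for the same c subunit of its rotor, Atp5g1, Atp5g2 and Atp5g3, differed by −0.0067 (limma adjusted p = 0.952), −0.10 (0.197) and −0.01 (0.894). Atp5g2 was the lowest of the complex, and the interval of its difference ran from −0.19 to −0.00090. Its 2 further, dim probe sets differed by 0.16 and −0.04.

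The means per array show how far the chain as a whole stood from the muscle genes on the same arrays. Relative to the control mean, the mean of the 79 members other than Cox8b was −0.06, −0.02, 0.0071, −0.04, −0.03 and −0.04 on mutants 1 to 6, against −0.01 to 0.0092 on controls. It was below every control on mutants 1, 2, 4, 5 and 6, and lowest on mutant 1. The mean of the skeletal muscle markers was −0.99, −0.60, −0.60, −0.84, −0.49 and −0.73 on mutants 1 to 6, and on controls it was lowest on control 1 at −0.30, with the others between −0.03 and 0.17. Cox8b stood at −1.71, −0.84, −1.28, −1.39, −1.17 and −1.15 on mutants 1 to 6 and was likewise lowest among controls on control 1 (−0.53). As a single gene Cox8b (−1.26) lay within the range of the single muscle markers, which ran from −1.51 (Tnnt3, a fast troponin T) to −0.16 (Actc1, cardiac α-actin).

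**Figure D3:**
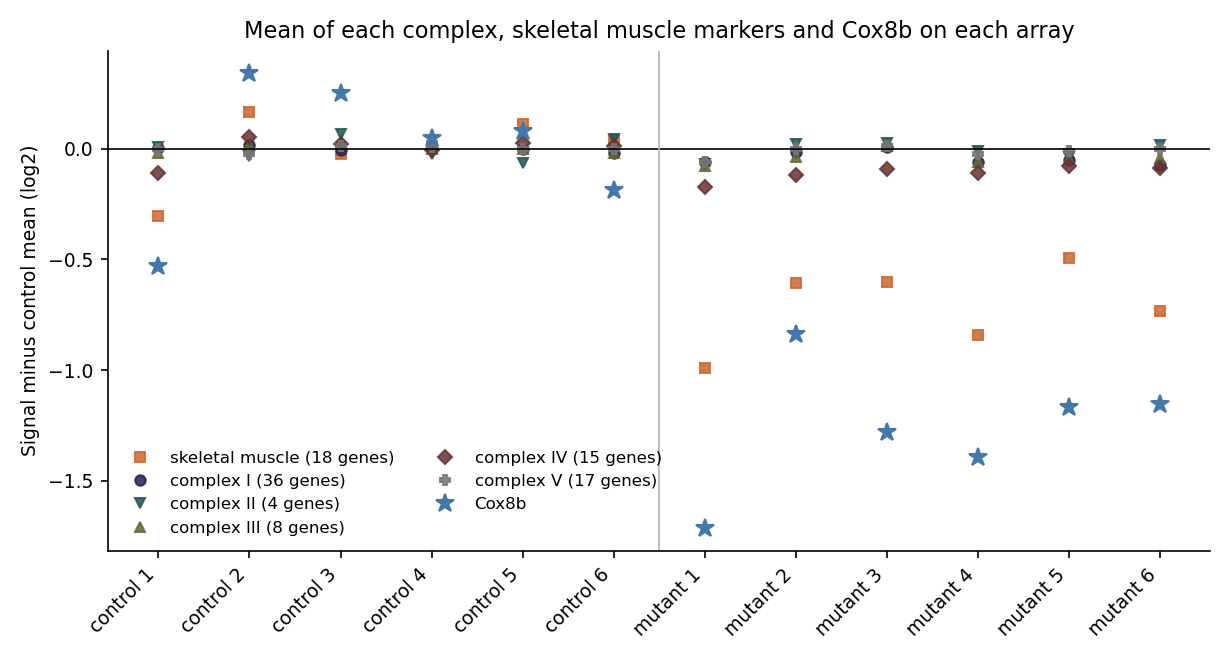
Mean log2 signal of each complex, of 18 skeletal muscle markers and of Cox8b on each array, relative to the control mean. In mutants the muscle markers lie between −0.99 and −0.49 and Cox8b between −1.71 and −0.84, while complexes I, II, III and V lie between −0.08 and 0.02 and complex IV, which holds Cox8b, between −0.17 and −0.08.

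Markers of neurons, mesenchyme, cartilage and epithelium included many that rose on the mutant arrays. Past the threshold and higher were 9 of 12 neuron markers (mean level 7.997 to 8.24 in controls and 8.35 to 9.14 in mutants), 10 of 12 cranial mesenchyme markers (8.74 to 8.97 and 9.01 to 9.31), 5 of 10 cartilage markers (6.97 to 7.20 and 7.32 to 7.54, with Comp, chosen after its value was seen, lower), and 4 of 11 oral epithelium markers (10.31 to 10.65 and 10.62 to 10.95). Of 10 endothelium markers 1 passed (8.52 to 8.72 and 8.59 to 8.83), as did 1 of 12 macrophage markers (8.21 to 8.33 and 8.28 to 8.50), shares no higher than the 11.1% of all genes. Below zero lay 1 of 12 neuron markers (−0.24), 2 of 12 cranial mesenchyme markers and 3 of 10 cartilage markers, of which only Comp passed. Above zero lay all 12 macrophage markers (median 0.10) and 8 of 10 endothelium markers (median 0.10). None of 9 erythroid markers passed (8.30 to 8.61 and 8.14 to 8.55), though all 9 lay below zero (median −0.10). Their part in the values of the respiratory chain was not tested.

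None of 76 mitochondrial ribosomal protein genes passed (median −0.04, 64 of 76 below zero), nor did any of 17 tricarboxylic acid cycle enzymes (median −0.03), 22 genes of import, carriers and mitochondrial shape (−0.03) or 3 genes for cytochrome c and cytochrome c1 (−0.06). Of 44 assembly factors 1 fell, Coa7, a factor of complex IV assembly (−0.18, limma adjusted p = 0.0398), which passed in 10 of 23 alternatives.

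Of 17 fatty acid oxidation genes 2 fell and 1 rose, or 17.6% beside 11.1% of all genes, with a median of 0.05. Fabp3, the fatty acid binding protein of heart and muscle, fell from 10.20 ± 0.20 to 9.23 ± 0.27, 1.96-fold, below all controls on 6 of 6 mutant arrays (limma adjusted p = 0.000455). With the mean of its probe sets it differed by −0.49 and still passed. Acadl, a long-chain acyl-CoA dehydrogenase, fell by 0.21 on the log2 scale (limma adjusted p = 0.0222) and Cpt1a, the liver form of the carnitine shuttle enzyme, rose by 0.25 (0.0256). Acadl kept its call in 18 and Cpt1a in 17 of 23 alternatives.

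Of 22 regulators of mitochondrial biogenesis 3 fell and 0 rose, or 13.6%, near the share of all genes, and their median was 0.0049. Ppargc1b, a coactivator of genes for oxidative metabolism, fell by 0.43 ± 0.09 (SE) on the log2 scale, from 8.62 ± 0.14 to 8.19 ± 0.19, and 5 of 6 mutants lay below all controls (limma adjusted p = 0.00779). It lost its call only without control 3, mutant 4 and mutant 6, among 23 alternatives (−0.43, adjusted p = 0.0526). Ppard, a nuclear receptor, fell by 0.22 (limma adjusted p = 0.0231; past the threshold in 17 of 23 alternatives) and Esrrb, an oestrogen-related receptor, by 0.27 (0.0474; 8 of 23).

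**Figure D4:**
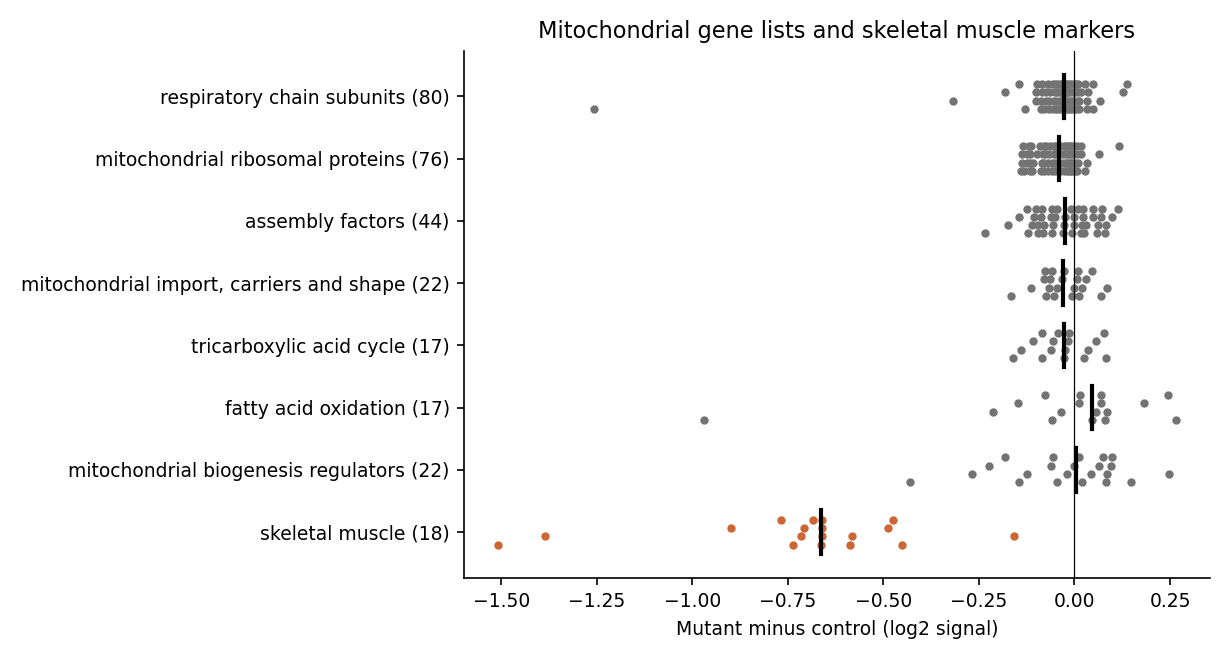
Difference in log2 signal (mutant minus control, horizontal axis) of each gene in 7 mitochondrial groups and of 18 skeletal muscle markers, with the number of genes in brackets and a bar at the median. The mitochondrial medians lie between −0.04 and 0.05 and the muscle median at −0.66, with Cox8b (−1.26) and Fabp3 (−0.97) the points farthest left of their groups.

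Most respiratory chain genes had bright probe sets: 61 of 80 had a mean over 12, and among them the intervals of all 61 lay within a 1.25-fold change, with a median of −0.03. Over all 947 genes that bright, 851 intervals (89.9%) lay within the same bound, 45 genes fell and 45 rose. The 11 skeletal muscle markers with a mean over 12 all fell, with a median of −0.66. How small changes read at that brightness was not tested. At the other end, 5 members lay under the median of all values. More than 1 probe set was present for 47 members. Of the 85 further probe sets 1 passed over all probe sets tested, the least bright of Ndufs8. It read 7.80 in controls and 7.64 in mutants (−0.16, limma adjusted p = 0.0357). The brightest probe set of Ndufs8 differed by −0.04 (limma adjusted p = 0.704, likewise over all probe sets). The others of this gene differed by −0.09 to −0.03 and did not pass. Cox8b, Cox7a1 and Uqcrfs1 each had a single probe set with 1 symbol, so no second reading of them was available in this comparison.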

How the data were processed

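Total RNA of 12 tongue samples was measured on Affymetrix Mouse Genome 430 2.0 arrays, 6 in each genotype by the sample titles. The authors deposited log2 signals per probe set made with RMA, per the submitters' processing notes. Software, version and log base are not stated in the labels used here, and base 2 was taken from the range of values. RMA makes the arrays nearly alike in distribution, so a displacement common to most genes is hidden, and it compresses changes of dim probe sets. Litters are not given, so p-values measure the spread between these samples.

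Control probe sets (64) were left out. The platform annotation gave 1 symbol for 34945 probe sets, and 34754 of these symbols were checked by gene identifier against RefSeq (GRCm38.p6), with none changed. Each gene was represented by its brightest probe set. Genotypes were compared over all 18193 genes with limma 3.58.1 in R 4.3.3 (lmFit, eBayes, 2-sided, Benjamini-Hochberg, threshold 0.05). Intervals are 95%, from the same fit for single genes. The fit was tested on simulated data. Array signals carry no sequencing depth, so precision rests on how many arrays there are. Named members were those past the threshold, the largest rise and fall of each complex, isoform pairs and catalytic core subunits. Outside the members up to 3 passing genes of a mitochondrial list were named. Members, lists and alternatives were chosen with earlier results of these data known, and promoter motifs after the values were seen.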

Additional observations from a re-analysis of the deposited data

Results flagged for a closer look

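In 25 named members, or 50 groups of 6 arrays, 4 single arrays stood apart from the rest of their group by Dixon's criterion, where chance gives about 1 in 20 groups. Sdhd was low on mutant 1 (11.84, next 11.92). Uqcrc1 was high on mutant 6 (13.00, next 12.81). Cox6b1 was high on control 3 (14.01, next 13.93). Atp5g1 was low on mutant 1 (12.56, next 12.70). None of these genes passed, and their differences stayed short of the threshold with each array left out in turn.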

How the results depend on the processing

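The comparison was repeated under 23 alternatives: arrays quantile normalised or centred, probe sets averaged per gene, dim probe sets left out, the variance trended and robust or unequal between groups, arrays weighted, replicate numbers as a block, each of 12 arrays left out in turn, and 3 sets of arrays left out. No member was higher under any of them. The members lower numbered 2 in the main comparison, 4 with a trended and robust variance, 1 without mutants 1 and 2, and 1 without control 3, mutant 4 and mutant 6, and 2 to 3 with single arrays left out. Over all genes, the last 2 sets left 496 and 396 lower and 379 and 440 higher, with fewer samples tested. With single arrays left out 665 to 899 were lower and 733 to 1209 higher, the fewest higher without mutant 1 (733) and mutant 2 (763). The median of the members stayed between −0.03 and −0.02 and that of all genes between 0.0011 and 0.03. Medians of the complexes moved by less than the spread between arrays; those of complexes II and V reached 0.0031 and 0.0016. Of 572 values of named members 562 kept their side of the threshold and their size, 6 gained a call (Cox7a1 and Ndufa6, 3 each), 2 lost one (Uqcrfs1), 2 moved by more than the spread (Atp5g2 to 0.0094 and Sdha to 0.02 with the mean of all probe sets), and none reversed. The cause of these changes was not tested.

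Same-numbered arrays deviated together with correlations of 0.124, 0.21, −0.06, 0.237, 0.139 and 0.239 for numbers 1 to 6. Number 3 did not reach 0.1, which was asked of every number, so the numbers were not taken as pairs, although the other 5 passed it. With the replicate block 2 members were lower, Cox8b and Uqcrfs1, and the member median was −0.03. Of the 7 passing genes of mitochondrial lists, Coa7 lost its call under the block (adjusted p = 0.0897).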
